A study of Mus musculus with 6 samples.

Results

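The genes described here were 8 enzymes and enzyme subunits of mitochondrial carbon metabolism, chosen by name: pyruvate carboxylase (Pcx), citrate synthase (Cs), the catalytic subunit of NAD-dependent isocitrate dehydrogenase (Idh3a), mitochondrial NADP-dependent isocitrate dehydrogenase (Idh2), the first subunit of the oxoglutarate dehydrogenase complex (Ogdh), the shared subunit of succinyl-CoA ligase (Suclg1), fumarase (Fh1) and mitochondrial malate dehydrogenase (Mdh2). Each symbol matched 1 of the 50686 gene identifiers in the count files, and all 8 passed the filter on low counts, as did 16729 genes in all. The cells were induced pluripotent stem cells (iPSCs) reprogrammed from mouse gingival fibroblasts, grown as embryoid bodies, guided with retinoic acid in serum-containing stem cell medium and attached in it to gelatin-coated plates. The embryoid bodies were then either exposed for 24 h to intermittent compressive force in serum-free medium (ICF; 1.5 g per square centimetre at 0.23 Hz; n = 3) or kept unloaded (control; n = 3). No strain, genotype or age is given in the labels, and they name no other difference between the groups. The labels number the samples of each group by donor, from 1 to 3, and this number is used as the replicate. The study's methods speak of independent experiments, grow the iPSCs on SNL feeder cells that were removed before embryoid body formation, and describe 1 iPSC source.

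The tricarboxylic acid (TCA) cycle oxidizes acetyl groups in the mitochondrial matrix and passes the electrons to the respiratory chain as NADH and reduced flavin. Pyruvate enters it as acetyl-CoA through pyruvate dehydrogenase or as oxaloacetate through pyruvate carboxylase, and citrate, oxoglutarate and malate leave it for lipid, amino acid and cytosolic redox metabolism. In pluripotent cells oxoglutarate is also known as the co-substrate of dioxygenases that remove methyl groups from histones and DNA.

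Counts on genes came to 28711166 to 34194413 in a sample. ICF replicate 3 stood apart: 89.0% of its non-zero counts could be divided by 4, whereas 20.3% to 21.5% could in each of the others. All 8 of its counts for these enzymes could be, and a step of 4 was 0.418% of the smallest of them. ICF replicate 3 also had fewer genes with a count, 20802 against 24340 to 24889 in the others. Whether its counts equal its number of reads was not tested. Across the 6 samples the counts of the 8 genes ranged from 917 to 11209. Replicate 3 of both groups had the most reads outside genes, 6.24% and 6.04% against 4.09% to 4.52% in the other 4 samples. The share of counts from mitochondrially encoded genes was 1.92% to 2.24% in the control and 2.18% to 2.60% with ICF. Markers of the labelled cell type were present, with summed levels of 8 pluripotency genes of 2872 to 3423 CPM (counts per 1000000 counts on genes, after TMM scaling) in the control and 2685 to 2882 CPM with ICF. Of these, 1 of 8 fell, Tdgf1, and 2 were called lower in a fit with the donor number as a replicate block. The summed level of 10 mesenchymal and feeder fibroblast markers was 232 to 265 CPM in the control and 266 to 289.6 CPM with ICF, and 2 of the 9 tested, Col1a1 and Col3a1, rose (4 with the block), whereas Lum was at or near 0 in every sample. Neural, endoderm and cardiomyocyte marker sums were 122 to 132, 359 to 376 and 4.95 to 6.12 CPM in the control and 119 to 129, 353 to 394 and 8.05 to 9.94 CPM with ICF. Of the tested neural markers 0 of 7 changed (edgeR; 4 had an unadjusted p under 0.05, DESeq2 called 1 higher, and the block 3 higher and 1 lower), of the endoderm markers 1 of 6 fell (with the block 1 rose and 1 fell), and of the cardiomyocyte markers 1 of 5 rose and 1 fell, with the block too. Among all genes tested, 7.85% changed by edgeR, 13.2% by DESeq2 and 29.9% with the block. The part of these markers in the changes below was not tested, and in bulk RNA fewer cells of a type cannot be told apart from less RNA per cell.

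The comparison of ICF with control asked which of these enzymes differed in mRNA level after loading. Idh2 and Idh3a, both of which convert isocitrate to oxoglutarate, were lower with ICF, by 30.2% and 15.1%. For the other 6 genes the groups overlapped and the fitted change was at most 0.063 on the log2 scale in either direction. By edgeR's quasi-likelihood test with Benjamini-Hochberg adjustment over all genes, 2 of 8 changed, beside 7.85% of all genes tested. Both fell, which is 25.0% of the 8, beside 4.38% of all genes. DESeq2 and the replicate block also called 2 lower, beside 7.26% and 15.3% of all genes lower (the block called 29.9% in either direction and DESeq2 13.2%). None of the 8 rose by edgeR, DESeq2 or the block, beside 3.47%, 5.95% and 14.6% of all genes, and 2 of the 8, or 25.0%, had an unadjusted p under 0.05 in edgeR, near the 25.6% of all genes. All ICF samples lay below all control samples in 2 of the 8, beside 15.7% of all genes tested. The median log2 fold change of the 8 was -0.045, and that of all genes 0.0026. Leaving out 1 sample at a time left 0 genes past the threshold without control replicate 1, control replicate 2 or ICF replicate 2, and 1, Idh2, without control replicate 3, ICF replicate 1 or ICF replicate 3. Both passed without replicate 3 of both groups.

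**Figure D1:**
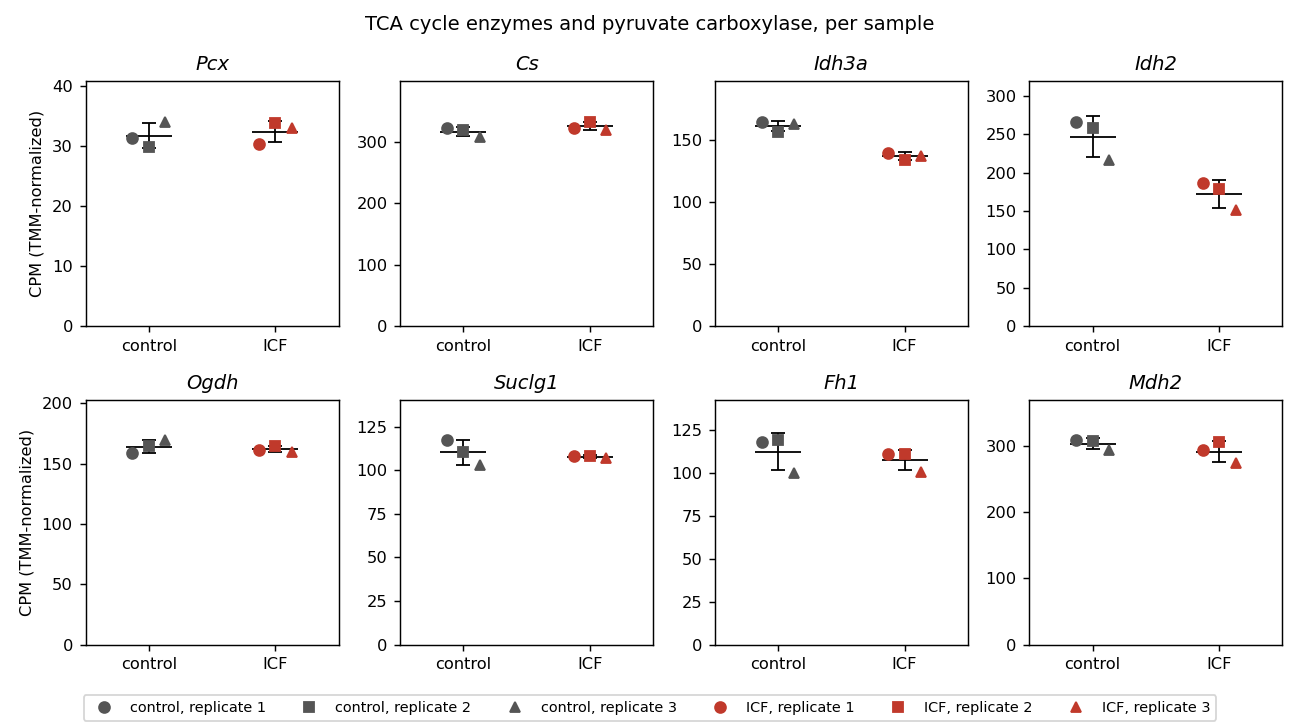
Level of each of the 8 genes in CPM (vertical axis, from 0) in the 3 control and 3 ICF samples; symbols mark the replicate number, and the horizontal line and bars show the mean and SD. Only the Idh2 and Idh3a panels show all ICF samples below all control samples.

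Idh2 makes NADPH in the matrix while it oxidizes isocitrate, and can also run in the reverse direction. It lies on the reverse strand of chromosome 7 of GRCm38, from 80094846 to 80115392 (ENSMUSG00000030541, protein coding). Its level was 266, 259 and 216 CPM in control replicates 1, 2 and 3 and 187, 179 and 152 CPM in ICF replicates 1, 2 and 3. Every ICF sample was below every control sample, and replicate 3 was the lowest sample of both groups. The means were 247 ± 27.0 CPM (SD, n = 3) and 172 ± 18.2 CPM (SD, n = 3). This is -0.52 on the log2 scale, with a standard error (SE) of 0.13 and an adjusted p of 0.0188 in edgeR. An exact two-sided permutation test of log2 CPM gave p = 0.1, which is as low as 3 samples against 3 allow. Within donors 1, 2 and 3 the log2 difference was -0.51, -0.53 and -0.51, an SD of 0.011, so the lower level of replicate 3 was shared by both groups. The pluripotency marker sum was also lowest in replicate 3 of each group, at 2872 CPM in the control and 2685 CPM with ICF. So were the mesenchymal and feeder sum, at 232 and 266 CPM, and the endoderm sum, at 359 and 353 CPM. The neural and cardiomyocyte sums were not lowest there in both groups. The part of these markers was not tested. The adjusted p was above the threshold without control replicate 1 (0.0924), control replicate 2 (0.101) or ICF replicate 2 (0.0512), and below it in the other 3 such fits, down to 0.00753 without control replicate 3. The log2 fold change stayed between -0.61 and -0.43.

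Idh3a encodes the catalytic subunit of the NAD-dependent enzyme, which is regarded as the main forward isocitrate dehydrogenase of the cycle. It lies on the forward strand of chromosome 9, from 54586334 to 54604661 (ENSMUSG00000032279). Its level was 164, 156 and 162 CPM in the control replicates and 139.7, 133 and 137 CPM in the ICF replicates, again with no overlap and with little spread in either group. The means were 161 ± 4.33 CPM and 137 ± 3.12 CPM (SD, n = 3 each). This is -0.24 on the log2 scale (SE 0.030; adjusted p in edgeR 0.0362; exact permutation p = 0.1). Within donors it was -0.24, -0.23 and -0.25. The size hardly moved when a sample was left out (-0.26 to -0.21), but the adjusted p was above the threshold in all 6 of those fits: 0.150 and 0.120 without control replicates 1 and 2, 0.0510 without control replicate 3, and 0.118, 0.121 and 0.0510 without ICF replicates 1, 2 and 3. It was 0.0508 when every gene with at least 1 count was tested.

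The other 6 genes are given by their place in the pathway. Pcx, the biotin enzyme that makes oxaloacetate from pyruvate, lies on chromosome 19 from 4510472 to 4621752 and was the least abundant, at 31.4, 29.7 and 34.0 CPM in the control replicates and 30.3, 33.7 and 33.0 CPM with ICF. The difference was 0.029 on the log2 scale (SE 0.073), and single donors went both ways, with -0.05, 0.18 and -0.04. Cs, which joins acetyl-CoA to oxaloacetate, lies on chromosome 10 from 128337734 to 128362479. Its level was 322, 318 and 308 CPM in the control and 323, 332 and 319.5 CPM with ICF. The difference of 0.040 (SE 0.026) had the smallest SE of the 8, and the 9 differences between an ICF and a control sample ran from -0.01 to 0.11.

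Ogdh decarboxylates oxoglutarate, the step after isocitrate dehydrogenase, and lies on chromosome 11 from 6291633 to 6356642. Its level was 158, 164 and 169 CPM in the control replicates and 162, 165 and 159 CPM with ICF, so the ICF samples lay inside the control range. Suclg1, whose product pairs with either an ATP- or a GTP-specific partner, lies on chromosome 6 from 73248382 to 73276911, and its level was 117, 111 and 103 CPM in the control and 108, 108 and 107 CPM with ICF. The 3 ICF samples of Suclg1 were again within the control range. The log2 fold changes of Ogdh and Suclg1 were -0.019 (SE 0.031) and -0.031 (SE 0.055).

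Fh1 hydrates fumarate to malate and lies on the reverse strand of chromosome 1 from 175600374 to 175625635. It was at 118, 119 and 99.98 CPM in the control and 111, 111 and 101 CPM with ICF, where replicate 3 was the lowest of both groups, as for Idh2. Mdh2 regenerates oxaloacetate from malate and lies on chromosome 5 from 135778480 to 135790398. It was at 308, 308 and 294 CPM in the control and 294, 306 and 274 CPM with ICF. The log2 fold changes were -0.063 (SE 0.094) for Fh1 and -0.059 (SE 0.052) for Mdh2. The adjusted p of these 6 genes ran from 0.592 for Mdh2 to 0.865 for Ogdh (edgeR), which does not show that their levels were equal. The widest bounds were those of Fh1, whose single sample differences ran from -0.24 to 0.15, a span that holds the -0.24 found for Idh3a.

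No stretch of 75 bases, the read length, of the longest transcript of any of the 8 genes occurred in a GENCODE M21 transcript of another gene on either strand. Exon sequence outside the longest transcript was not examined.

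To compare the genes with each other, counts were divided by the length of all annotated exons of the gene and scaled to a total of 1000000 in each sample (TPM, without TMM). In this unit the order of medians was Mdh2 at 279.8, Idh2 at 264, Cs at 184, Fh1 at 110.2, Ogdh at 99.8, Idh3a at 97.3, Suclg1 at 78.7 and Pcx at 22.7. The ranges over the 6 samples overlapped between Mdh2 and Idh2, between Fh1 and Ogdh and between Ogdh and Idh3a, so these neighbours are not ordered beyond their spread. Cs, Suclg1 and Pcx each had a range apart from both neighbours. Idh2 had the highest mean of the 8 in the control, at 313 ± 27.2 TPM (SD, n = 3), with Mdh2 at 279 ± 2.92 TPM. With ICF the order of that pair was the opposite, with Idh2 at 225 ± 23.6 and Mdh2 at 276 ± 13.2 TPM (SD, n = 3). Idh2 made up 26.4% ± 1.69 of the TPM of the 8 genes in the control and 20.6% ± 1.37 with ICF (SD, n = 3). Orders and shares in this unit depend on the length used. All exons came to 2588 bases for Idh2 and 3562 for Mdh2, but their longest transcripts to 1790 and 1606. Levels per transcript length were not computed. In CPM, without a length, Mdh2 had the higher mean in both groups, at 303 against 247 in the control and 291 against 172 with ICF.

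The 8 genes together came to 1196, 1203 and 1150.0 TPM in the control and 1125, 1106 and 1042 TPM with ICF. The groups did not overlap (exact permutation test of the sums, n = 3 per group, p = 0.1). Without Idh2 and Idh3a the sum was 766 ± 7.90 TPM in the control and 775 ± 20.6 TPM with ICF (SD, n = 3). Idh2 and Idh3a were left out because they fell in these same data, so the absence of a fall in the rest follows in part from that choice. On this scale Cs was higher in all ICF samples, at 188 to 191 TPM against 178 to 180 TPM, whereas on the TMM scale its groups overlapped.

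**Figure D2:**
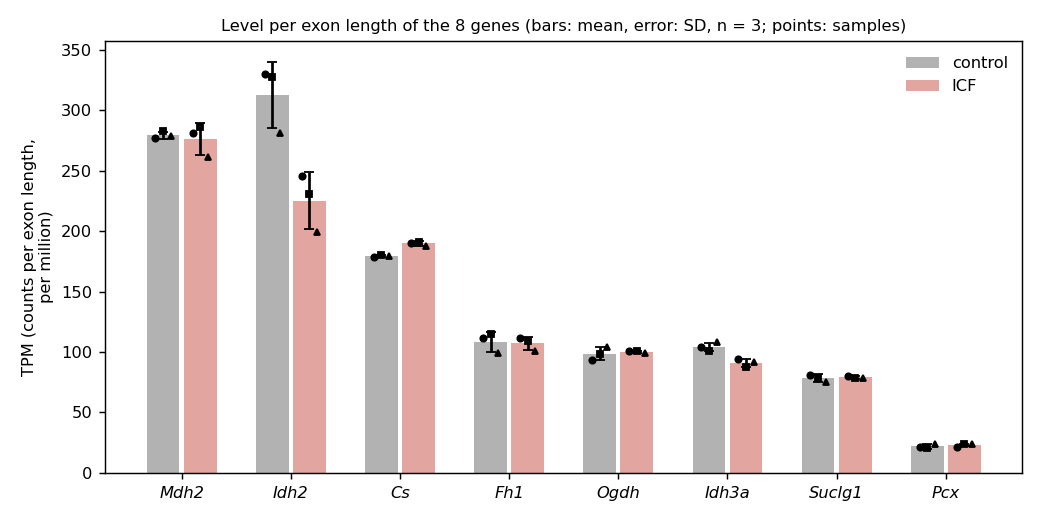
Level per exon length in TPM (vertical axis, from 0) of the 8 genes, ordered by median; bars are group means, error bars the SD (n = 3) and points the samples. Idh2 is above Mdh2 in the control mean (313 against 279 TPM) and below it with ICF (225 against 276 TPM). The order of genes depends on the exon length used.

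The remaining subunits and isozymes of the cycle were examined together with related enzymes, called other cycle genes below. Among them are Dhtkd1 and the cytosolic Idh1, which lie outside the mitochondrial cycle. The list held 16 genes, all of them tested. Of these, 3 fell, or 18.75%, none rose and 13 did not pass, beside 4.38% of all genes lower and 3.47% higher. Their median log2 fold change was -0.091. DESeq2 called 4 lower and 0 higher, beside 7.26% and 5.95% of all genes. The replicate block called 6 lower and 1 higher, beside 15.3% and 14.6%. Without control replicate 2 or ICF replicate 1 the number was 1, Dhtkd1. Dhtkd1, a dehydrogenase of oxoadipate related to Ogdh, fell from 34.0 ± 1.28 CPM to 22.3 ± 2.23 CPM (SD, n = 3), or -0.61 on the log2 scale (SE 0.088; adjusted p in edgeR 0.00583), and passed in all 6 fits that left out a sample. Idh1, the cytosolic NADP-dependent isocitrate dehydrogenase, fell from 173 ± 10.4 to 135 ± 1.40 CPM, or -0.36 on the log2 scale (adjusted p in edgeR 0.0114), and did not pass without control replicate 2 (0.0608) or ICF replicate 1 (0.0599). Suclg2, the GTP-specific partner of Suclg1, fell from 73.5 ± 3.39 to 59.1 ± 0.99 CPM, or -0.32 (adjusted p in edgeR 0.0189). It did not pass without control replicate 1 (0.0887), control replicate 2 (0.120), ICF replicate 1 (0.0786) or ICF replicate 2 (0.0740), and 16.0% of its 75-base stretches also occur in the annotated gene Gm15163.

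The partners of Idh3a in the NAD-dependent enzyme, named after their values were seen, did not move alike. Idh3g differed by -0.34 on the log2 scale (SE 0.14), from 145 ± 13.7 to 114 ± 15.3 CPM, with all ICF samples below all control samples. Within donors 1, 2 and 3 the difference was -0.35, -0.26 and -0.43. The adjusted p of Idh3g was 0.0863 by edgeR, 0.0332 by DESeq2 and 3.21e-06 with the replicate block. Idh3b was at 123 ± 2.37 CPM in the control and 129.7 ± 3.13 CPM with ICF, without overlap (0.080 on the log2 scale, adjusted p = 0.404, edgeR). Of the 5 isocitrate dehydrogenase genes, Idh2, Idh1 and Idh3a thus fell by edgeR's test, and Idh3g and Idh3b did not pass it. Dlst and Dld, the other subunits of the oxoglutarate dehydrogenase complex, and Ogdhl, a relative of Ogdh, had log2 fold changes of -0.14, 0.20 and -0.0046 and did not pass (adjusted p = 0.139, 0.154 and 0.987, edgeR). With the replicate block Dlst and Dld did (0.0359 and 0.00379). The succinate dehydrogenase subunits Sdha, Sdhb, Sdhc and Sdhd, named after their values were seen like Ogdhl and Dld, had log2 fold changes of -0.074, -0.10, -0.14 and 0.029, none past the threshold by edgeR, although Sdhc passed with the block (0.0463).

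**Figure D3:**
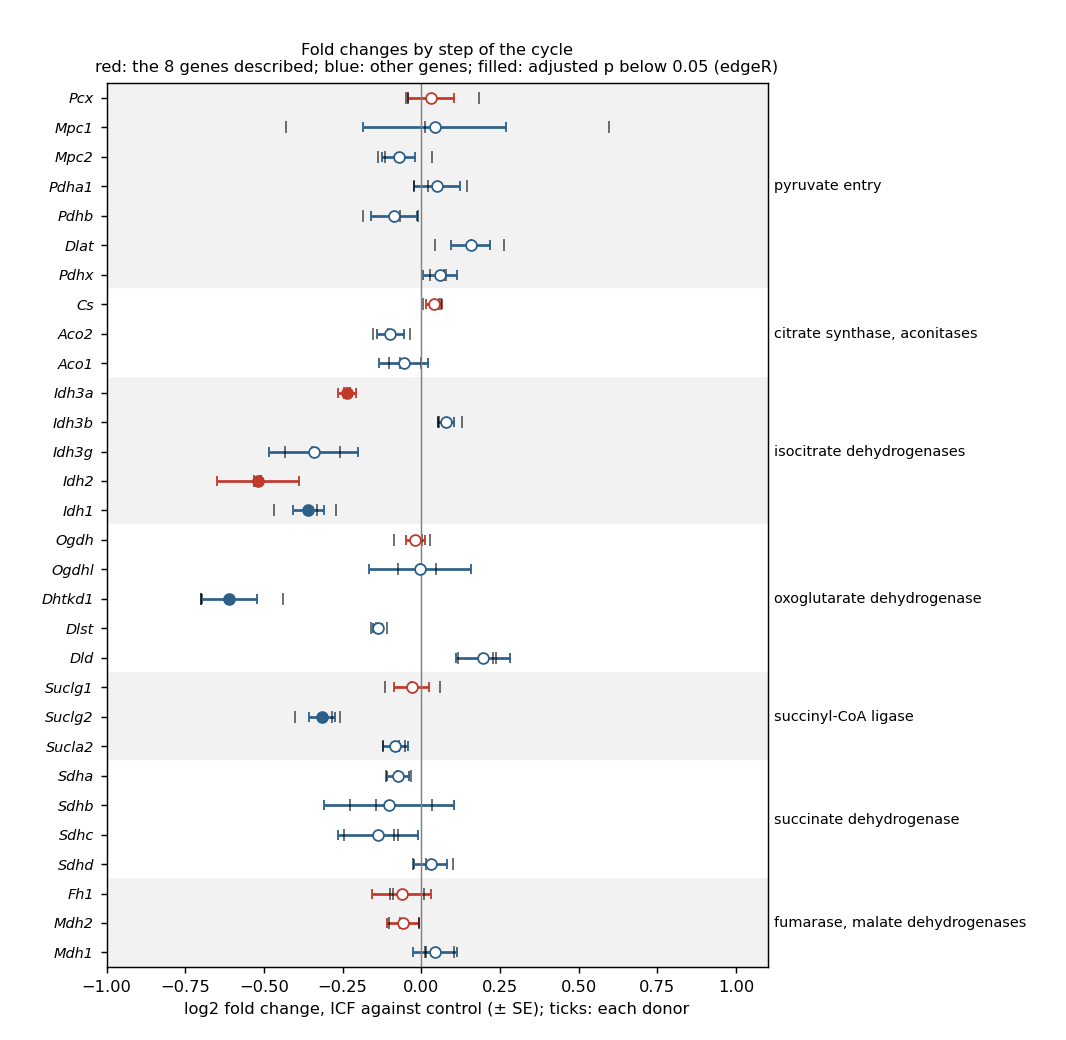
Log2 fold change of ICF against control (horizontal axis; 0 is no difference) for the 8 genes in red and for the other cycle and pyruvate entry genes in blue, by step; bars are standard errors, short vertical ticks the 3 donors, and filled circles passed edgeR's test. Filled circles are at Idh3a, Idh2, Idh1, Dhtkd1 and Suclg2, all left of 0.

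Ratios of 2 genes within a sample do not depend on how libraries are scaled, and 9 were examined with an exact two-sided permutation test. With n = 3 per group no ratio could pass, since the smallest p is 0.1, or 0.3 after adjustment over the 9. The log2 ratio of Idh2 to Idh3a counts was 0.61 ± 0.17 in the control and 0.33 ± 0.16 with ICF (SD, n = 3), so the groups overlapped (exact p = 0.3, adjusted 0.675). Within donors it fell by 0.28, fell by 0.30 and fell by 0.26, and an exact sign-flip permutation test over the 3 donors cannot go below p = 0.25. Idh2 to Idh1 gave -0.24, -0.20 and -0.04 within donors (exact p = 0.4, adjusted 0.72).

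The groups were apart for 3 of the 9 ratios, each at the smallest exact p of 0.1 (adjusted 0.3). Among single genes tested, all ICF samples lay above all control samples in 15.6% and below them in 15.7%. The share among ratios of other gene pairs was not computed. Sucla2 to Suclg2, the ATP- against the GTP-specific partner of Suclg1, had log2 ratios of 0.54, 0.51 and 0.69 in the control replicates, all below the 0.77, 0.79 and 0.88 of the ICF replicates. Mdh2 to Mdh1, the matrix against the cytosolic enzyme, differed by -0.10 (SE 0.033), although neither gene passed the test alone. Ogdh to Dlst was higher by 0.12 (SE 0.032). The ratios of Pcx to Cs and to Pdha1, a subunit of pyruvate dehydrogenase and so of the other entry of pyruvate, differed by -0.010 and -0.017 with SEs of 0.084 and 0.089 and went both ways among donors. Mdh2 to Fh1 and Ogdh to Suclg1 differed by -0.00053 and 0.011 (exact p = 1 and 0.8).

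**Figure D4:**
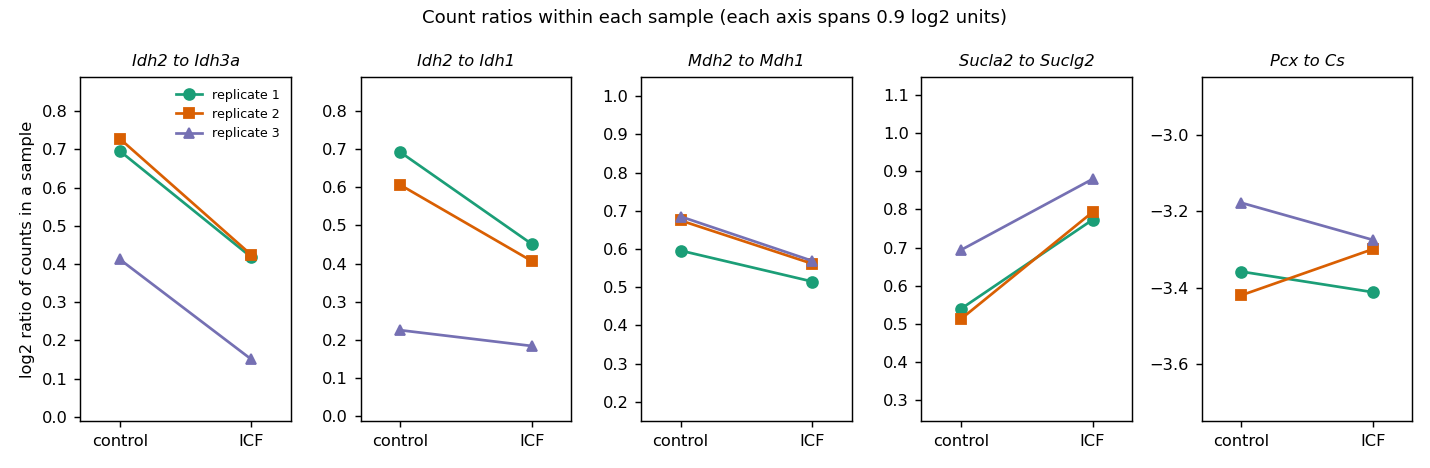
Log2 ratio of counts of 2 genes in each sample (vertical axis; every panel spans the same number of log2 units), with a line joining the control and ICF sample of the same replicate number. All 3 lines fall for Idh2 to Idh3a (-0.28, -0.30 and -0.26) and rise for Sucla2 to Suclg2, while those for Pcx to Cs cross.

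Genes around the cycle were counted in 5 further lists. Of 20 genes for other entries, exits and carriers, 18 were tested, 6 fell and 1 rose, beside 4.38% and 3.47% of all genes. The 6 are 33.3% of those tested, and the median log2 fold change was -0.15. DESeq2 also called 6 lower and 1 higher, beside 7.26% and 5.95% of all genes. The replicate block called 9 lower and 1 higher, beside 15.3% and 14.6%. Me1, the cytosolic malic enzyme that makes NADPH, fell most, from 127 ± 2.01 to 73.3 ± 3.27 CPM (-0.79 on the log2 scale, adjusted p = 0.000361, edgeR). Slc25a1, which exports citrate, fell by 0.47 on the log2 scale, and Gpt2, the mitochondrial alanine aminotransferase, by 0.36 (adjusted p = 0.0236 and 0.00844, edgeR). Slc25a10, the dicarboxylate carrier, rose from 22.9 ± 1.69 to 30.4 ± 2.36 CPM (SD, n = 3; adjusted p = 0.0297, edgeR). The count of 7 dropped to 1, Me1, without control replicate 1, control replicate 2 or ICF replicate 1 and to 2, Me1 and Gpt2, without ICF replicate 2.

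Of 6 genes for pyruvate import and pyruvate dehydrogenase, 0 changed by edgeR and 0 by DESeq2 (1 had an unadjusted p under 0.05; the replicate block called 1 higher, Dlat, named after its value was seen), and their median was 0.046. Pdha1 was at 241 ± 5.56 CPM in the control and 249 ± 21.4 CPM with ICF, and 13.9% of its stretches match Map3k15 on the opposite strand. Of 15 genes that supply lipoate, biotin and iron-sulfur cofactors or assemble succinate dehydrogenase, 0 changed by either tool (1 had an unadjusted p under 0.05, the block called 1 lower), with a median of 0.018 on the log2 scale. Of 8 regulators of mitochondrial gene transcription, 0 changed by edgeR, DESeq2 or the block, and 0 had an unadjusted p under 0.05. Their median was 0.030. Among all genes tested, 7.85% changed by edgeR, 13.2% by DESeq2 and 29.9% with the block, and 25.6% had an unadjusted p under 0.05 in edgeR. With lists this short, 0 calls do not show that these genes were spared.

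Of 20 general mitochondrial genes for import, chaperones and genome maintenance, 1 rose, Hspd1, the matrix chaperonin (log2 fold change 0.34, adjusted p = 0.0405, edgeR), and 1 fell, Lonp1, a matrix protease (-0.30, adjusted p = 0.023, edgeR). By the same test 3.47% of all genes rose and 4.38% fell. The replicate block called 2 higher and 3 lower, beside 14.6% and 15.3% of all genes. DESeq2 called 2 and 2, beside 5.95% and 7.26%. The count was 0 without control replicate 1, control replicate 2, ICF replicate 1 or ICF replicate 2 and 1, Lonp1, without ICF replicate 3. The median of this list was -0.036.

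The genes whose profiles over the 6 samples were most like those of Idh2 and Idh3a were sought among 11917 genes averaging 100 counts or more, by the root mean square difference between log2 CPM profiles centred on their mean. For Idh2 they were Copz2 (0.035), Slc25a1 (0.041) and Csnk1e (0.047), with log2 fold changes of -0.52, -0.47 and -0.44. For Idh3a they were Srpr (0.020), Tesk2 (0.023) and Hjurp (0.024), with log2 fold changes of -0.22, -0.23 and -0.22. Idh2 and Idh3a differed from each other by 0.195 in this measure. The profiles span both groups, so fold changes near those of Idh2 and Idh3a follow from how the like genes were picked.

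RefSeq promoter windows of GRCm38.p6, from 250 bases before to 50 after a start site, were used for Pcx, Cs, Idh2, Ogdh, Suclg1, Fh1 and Mdh2, 7 of the 8 genes, at 13 start sites. Idh3a, 1 of the 2 genes that fell, was not analysed here. The windows were searched on both strands for ACGTG, a form of the core of the hypoxia response element. ACGTG also lies within CACGTG and is then counted on each strand. Other forms of the core were not searched for. ACGTG was in 7 of the 13 windows, belonging to 2 genes, Pcx and Ogdh, beside 19.6% of all 32851 promoter windows. Several of the 6 Ogdh windows overlap and share a match, so they are not separate cases. AAGGTCA, an element of estrogen-related receptors, was in 1 Ogdh window, beside 4.72% of all. Neither the palindromic NRF1 motif nor CCGGAAG, bound by ETS factors, was in any of the 13, beside 4.6% and 8.86%. The windows of Idh2 and of the first Pcx start are printed from RefSeq, the capitals marking ACGTG or its reverse complement. The Idh2 window holds none of the strings searched for, but it does hold GCGTG, another form of that core. The share of all windows with GCGTG was not computed. The first Pcx window holds ACGTG and the second does not. Whether any of these strings bears on the levels of the genes was not tested. Idh2 is at chr7:80115301-80115600 on the reverse strand and Pcx at chr19:4510222-4510521 on the forward strand. A match is a string of letters, not a shown binding site.
Idh2: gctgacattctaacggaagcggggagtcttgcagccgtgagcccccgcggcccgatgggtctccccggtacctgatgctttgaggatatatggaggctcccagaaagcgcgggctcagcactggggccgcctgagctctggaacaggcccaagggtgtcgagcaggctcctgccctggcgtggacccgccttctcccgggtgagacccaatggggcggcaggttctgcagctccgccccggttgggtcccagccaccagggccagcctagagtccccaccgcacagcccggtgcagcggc
Pcx: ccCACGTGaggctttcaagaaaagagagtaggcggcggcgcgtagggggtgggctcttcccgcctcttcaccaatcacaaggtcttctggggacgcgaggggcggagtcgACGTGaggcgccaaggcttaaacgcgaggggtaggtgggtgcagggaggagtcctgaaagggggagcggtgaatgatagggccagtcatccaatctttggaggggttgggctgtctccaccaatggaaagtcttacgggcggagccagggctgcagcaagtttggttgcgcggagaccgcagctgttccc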

How the data were processed

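mRNA was sequenced from 3 ICF and 3 control samples with a strand-specific library kit and single reads of 75 cycles. The authors filtered low-quality reads (Trimmomatic), mapped the rest (HISAT2) and used HTSeq to count reads for each gene. The deposited files hold raw counts, 1 sample in each. Tool versions for these steps are not given in the sources used here, and the submitters' processing notes name GRCm38 and hg38 with no role, while the gene identifiers are mouse. Lines that name no gene were left out of library sizes: of all reads, 29.5% to 31.3% aligned to several places, 4.09% to 6.24% fell outside genes, 0.898% to 0.960% were ambiguous and 2.48% to 3.32% were unaligned.

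Symbols, coordinates and exon lengths came from GENCODE M21 (GRCm38), which named 50462 of 50686 identifiers. edgeR 4.0.16 (R 4.3.3; TMM, filterByExpr, glmQLFit and glmQLFTest) was fitted to all 16729 genes past the filter, and calls were made at a Benjamini-Hochberg adjusted p below 0.05. It was tested on simulated data first. SEs were computed from the variance of log2 CPM within each group, not by edgeR. Since replicates are only numbered by donor, p-values measure the spread between these samples. Ratios had 0.5 added to each count. Same-numbered samples deviated together across genes (r = 0.15, 0.20 and 0.38 for donors 1 to 3), and the pairing comes from the donor numbers in the labels.

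The 8 genes, the lists and the tests were chosen with earlier results of these data known. Named were the 8 genes, the ratio partners, up to 3 changed genes with the largest change per direction of each list, and the 3 genes most like each of the 2 of these 8 that moved most. Alternatives were DESeq2 1.42.0, RLE factors, looser and stricter filters (a count of 1 or more in any sample, or of 10 or more in all 6), the replicate block with each tool, ICF replicate 3 divided by 4, and samples left out.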

Additional observations from a re-analysis of the deposited data

How the results depend on the processing

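Idh2 fell under every alternative that kept all 6 samples. Idh3a had -0.23 and an adjusted p of 0.0508 when all genes with at least 1 count in any sample were tested, so 1 of the 8 enzymes passed there; in the other alternatives with all 6 samples both fell. Leaving out 1 sample gave log2 fold changes of -0.61 to -0.43 for Idh2, -0.26 to -0.21 for Idh3a, -0.015 to 0.082 for Pcx, -0.043 to 0.0038 for Ogdh and -0.079 to 0.014 for Suclg1, so the last 3 changed sign, and Ogdh was at 0.016 without replicate 3 of both groups. Such fits called 0 to 1 of the 8 enzymes, 1 to 3 other cycle genes, 1 to 7 of the entries, exits and carriers, 0 to 3 general mitochondrial genes and 300 to 1652 of all genes, where all samples gave 1313. These fits had 2 samples in 1 group, and the cause of the lost calls was not tested.

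The replicate block, which pairs samples by donor number, called 5006 genes, the block in DESeq2 3020, and the fit without replicate 3 of both groups 5093. In that order they called 7, 5 and 7 other cycle genes and 5, 5 and 6 general mitochondrial genes (DESeq2 without the block 4). The block called 1 pyruvate entry gene and 1 cofactor gene, and the fit without replicate 3 of both groups 1 cofactor gene. With the block, no call among the 8 enzymes changed. Changes as small as those of the other 6 enzymes could not be separated from the spread between 3 samples per group.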
